A study of Mus musculus with 6 samples.

Results

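The phagocyte NADPH oxidase genes measured here were Cyba, Cybb, Ncf1, Ncf4, Rac1, Rac2 and Hvcn1, 7 of the 34652 genes in the table, taken by gene symbol. The set does not cover every part of the complex, and counts over it are counts over these genes only. They were compared between 2 kinds of macrophage from the cerebrospinal fluid of mice with leptomeningeal metastasis, on day 12 after they had been given LLC-LeptoM, mouse lung carcinoma cells selected for growth in the leptomeninges. All mice were Cx3cr1CreER:mTmG and received tamoxifen, so that cells in which the Cx3cr1-driven Cre had acted turned from red to green fluorescence. The gate for resident macrophages (dLAM in the labels) took CD45+CD11b+F4/80+ cells that were GFP+ and Ly6C-. Monocyte-macrophages (Mono-MΦ) were GFP- cells from 2 gates pooled in 1 tube, CD45+CD11b+F4/80+ and CD45+CD11b+F4/80low with Ly6C. Each population had 3 libraries, while the ages of the mice and how many went into a library are not stated. GFP marks any cell that used Cx3cr1 while tamoxifen was present, and the monocyte-macrophage libraries hold both F4/80 fractions.

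The phagocyte oxidase transfers electrons from NADPH across a membrane to oxygen and so makes superoxide, which phagocytes use against microbes and as a signal. Its catalytic core sits in the membrane as a heterodimer of gp91phox (NOX2, encoded by Cybb) and p22phox (Cyba). The core is inactive until cytosolic subunits, among them p47phox (Ncf1) and p40phox (Ncf4), and a GTP-bound Rac protein (Rac1 or Rac2) bind to it. Hvcn1 encodes a voltage-gated proton channel that carries out the protons left behind by the electron flow. Loss of a core or cytosolic subunit causes chronic granulomatous disease in humans.

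Expression was given as FPKM, a count of fragments scaled by gene length and library size. Levels can be compared between genes as far as the gene lengths used hold. Estimated depth lay between 1.23e+07 and 1.70e+07 fragments per library, and the members rested on between 235 fragments (Hvcn1 in monocyte-macrophage library 1) and 44004 fragments (Cybb in monocyte-macrophage library 3). Of 12 macrophage markers, 11 were higher in resident macrophages, and all 10 classical monocyte markers were lower. T cell (12 of 12), dendritic cell (9 of 10) and B and plasma cell markers (5 of 5 tested) were higher in resident macrophages as well. So were mast cell, basophil and eosinophil (4 of 5 tested), NK cell (3 of 3 tested) and red cell and platelet markers (3 of 4 tested). Of 5 carcinoma cell markers the 3 tested, Epcam, Krt18 and Cdh1, were higher. Krt8 and Krt19 reached at most 0.491 and 0.173 FPKM in any library and were not tested. Of the neutrophil markers, 7 of 12 were lower. The test was limma on log2(FPKM + 1), with 0.05 as the limit for a p adjusted over all 11317 genes tested. A negative log2 fold change means a lower level in resident macrophages. In sorted bulk libraries, fewer cells of a type and less RNA per cell cannot be told apart.

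The oxidase genes did not move as one group. Cybb fell to 45.0% of its monocyte-macrophage mean in resident macrophages, Ncf4 to 58.2% and Rac2 to 77.2%, while Cyba, Ncf1, Rac1 and Hvcn1 did not pass the test. Of the 7 members 3 were lower by limma, where 10.6% of all tested genes were lower, and 0 were higher, where 19.9% of all were. No member was higher at an unadjusted p under 0.05 either, and 30.5% of all tested genes were called in either direction. The median log2 fold change was -0.10 over the members and 0.06 over all tested genes. For 4 members the libraries of the 2 groups did not overlap, which held for 46.2% of all tested genes. Cybb, Ncf4 and Rac2 lay wholly below (16.9% of all tested genes did) and Hvcn1 wholly above (29.3%).

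**Figure D1:**
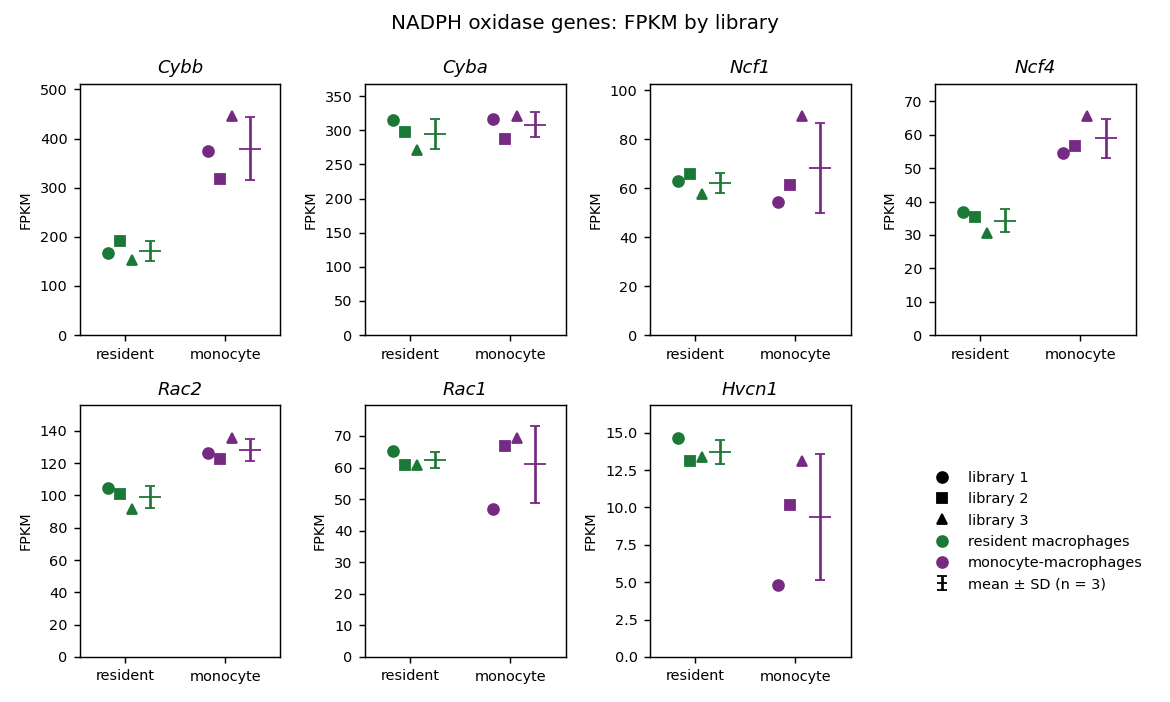
FPKM of each oxidase gene (vertical axes, linear from 0) in the 3 resident macrophage and the 3 monocyte-macrophage libraries, with symbols for library number and bars for the mean ± SD. Cybb, Ncf4 and Rac2 lie lower in every resident macrophage library than in any monocyte-macrophage library, while the Cyba, Ncf1 and Rac1 points overlap.

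Cybb, the electron-carrying subunit, lies on chromosome X (mm10, 9435252 to 9487771, minus strand). It stood at 166, 192 and 153 FPKM in resident macrophage libraries 1, 2 and 3, against 374, 317 and 445 FPKM in monocyte-macrophage libraries 1, 2 and 3. The lowest monocyte-macrophage library was thus above the highest resident macrophage library. The mean was 171 ± 20.04 FPKM in resident macrophages and 379 ± 64.0 FPKM in monocyte-macrophages (SD, n = 3 each), which gave a log2 fold change of -1.14 (SE 0.16, adjusted p = 0.0016). A share of 3.199% of the tested genes had a lower log2 fold change. Since Cybb is X-linked, Y-linked RNA was looked at: Ddx3y was above 5 FPKM in 1 library of each group (library 3 of the resident macrophages, library 2 of the monocyte-macrophages). In a fit of the other 4 libraries Cybb had a log2 fold change of -1.19 (limma, adjusted p = 0.010).

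Cyba, which encodes the partner of gp91phox in the membrane, lies on chromosome 8 (122424776 to 122432930, minus strand). Its levels were 315, 298 and 271 FPKM in resident macrophages, overlapping the 317, 288 and 320 FPKM of monocyte-macrophages. The log2 fold change was -0.07 (SE 0.12, adjusted p = 0.72), with a 95% confidence interval from -0.35 to 0.21. Gm20388, which the annotation places on the opposite strand of Cyba, was listed at 0 in every library. Cyba ranked between the 99.1 and 99.3 percentiles of the tested genes in all 6 libraries.

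**Figure D2:**
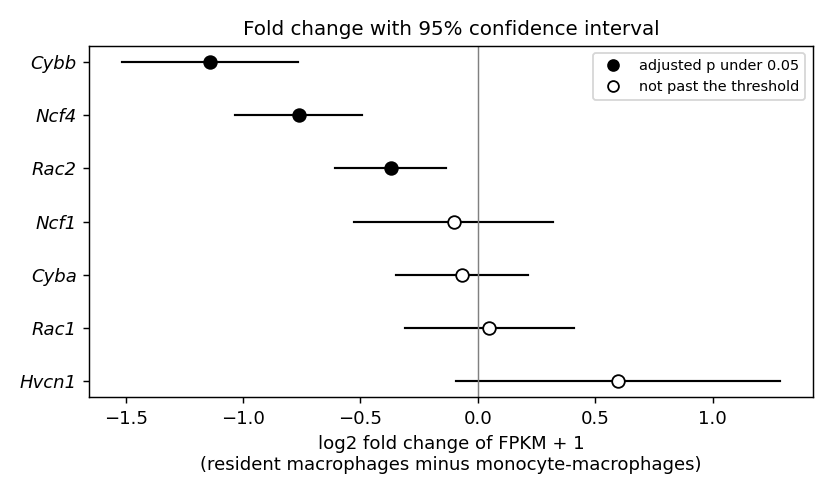
Log2 fold change of FPKM + 1 for the 7 oxidase genes (horizontal axis, resident macrophages minus monocyte-macrophages), with the limma 95% confidence interval as a line and filled points for an adjusted p under 0.05. Cybb at -1.14, Ncf4 at -0.76 and Rac2 at -0.37 lie left of 0 with their whole interval, and the intervals of the other 4 genes include 0.

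Ncf1 encodes p47phox, the subunit whose phosphorylation starts assembly, and lies on chromosome 5 (134220053 to 134229625, minus strand). It had 63.1, 65.9 and 57.7 FPKM in resident macrophages and 54.4, 61.3 and 89.4 FPKM in monocyte-macrophages. Monocyte-macrophage library 3 was the highest of all and library 1 of the same group the lowest, so the resident macrophage libraries lay inside the range of the others. The log2 fold change was -0.10 (SE 0.18, adjusted p = 0.72; 95% interval -0.53 to 0.32), and without monocyte-macrophage library 3 it was 0.10. Gtf2ird2, on the opposite strand, shares 5.63% of the 75-base windows of the longest Ncf1 transcript.

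Ncf4 encodes p40phox, whose PX domain binds the phagosomal lipid phosphatidylinositol 3-phosphate, and lies on chromosome 15 (78244801 to 78262580, plus strand). It stood at 37.0, 35.4 and 30.5 FPKM in resident macrophages, against 54.5, 56.8 and 65.5 FPKM in monocyte-macrophages, with no overlap. The mean was 34.3 ± 3.37 FPKM in resident macrophages and 58.9 ± 5.81 FPKM in monocyte-macrophages (SD, n = 3 each), a log2 fold change of -0.76 (SE 0.12, adjusted p = 0.0023). The calls of Cybb and Ncf4 were kept in each of the 16 other settings tried, single libraries left out among them.

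The RefSeq promoter table (GRCm38.p6, 250 bases before to 50 after the transcript start) held Cybb, Cyba and Ncf1, and the windows are shown because Cybb passed the test while Cyba and Ncf1 did not. They are chrX:9469275-9469574 for Cybb, chr8:122432891-122433190 for Cyba and chr5:134229576-134229875 for Ncf1, all on the minus strand and written 5′ to 3′ along the gene. The RefSeq start of Cybb lies inside the longer gene span given above from GENCODE M21. Capitals mark matches, on either strand, to the PU.1 core (GAGGAA), to the CCAAT box, to the TATA box (TATAAA) and to the GC box (GGGCGG). A loose AP-1 pattern (TGANTCA, with any base as N) is marked as well. They also mark the ETS-IRF composite (GGAA, any 2 bases, then GAAA) and the core of the interferon-stimulated response element (GAAA, any 2 bases, then GAAA).
Cybb: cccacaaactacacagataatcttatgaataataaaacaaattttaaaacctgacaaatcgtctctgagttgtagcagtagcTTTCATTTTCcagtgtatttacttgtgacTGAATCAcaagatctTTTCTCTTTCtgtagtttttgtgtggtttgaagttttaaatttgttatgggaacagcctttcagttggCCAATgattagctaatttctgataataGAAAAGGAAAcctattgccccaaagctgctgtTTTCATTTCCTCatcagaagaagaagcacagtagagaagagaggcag
Cyba: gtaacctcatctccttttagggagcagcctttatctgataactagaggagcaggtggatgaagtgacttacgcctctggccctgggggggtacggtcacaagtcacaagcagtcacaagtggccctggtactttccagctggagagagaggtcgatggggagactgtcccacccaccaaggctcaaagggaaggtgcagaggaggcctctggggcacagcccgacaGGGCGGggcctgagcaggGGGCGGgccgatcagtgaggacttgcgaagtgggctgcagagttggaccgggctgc
Ncf1: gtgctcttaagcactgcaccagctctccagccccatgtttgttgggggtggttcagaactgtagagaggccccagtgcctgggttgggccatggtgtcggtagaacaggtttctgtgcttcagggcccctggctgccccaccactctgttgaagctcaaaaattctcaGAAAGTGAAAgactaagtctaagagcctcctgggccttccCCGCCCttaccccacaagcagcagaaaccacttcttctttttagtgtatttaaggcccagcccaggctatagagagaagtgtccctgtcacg

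In the Cybb window the ETS-IRF composite matched on the minus strand from base 4 after the transcript start and overlapped the single match to the PU.1 core, which began at base 10. Of all 32851 promoter windows in the table, 2.72% held a match to the composite and 28.3% to the PU.1 core. The Cybb window also held 3 matches to the interferon element (in 3.44% of all windows), at -168, -124 and -29. It held 1 match to the loose AP-1 pattern at -139 (7.81%) and 1 to the CCAAT box at -56 (37.4%). The match at -139 reads TGAATCA, with A where the AP-1 consensus has C or G, and the 7.81% counts any middle base. Ncf1 had 1 match to the interferon element at -82, and 1 GC box at -42. Cyba matched the GC box alone, at -24 and -6, as 35.7% of all windows did at least once. The TATAAA letters were in none of these 3 windows and in 13.6% of all windows. A match is a description of the letters only.

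Rac2, the Rac GTPase of blood cells, lies on chromosome 15 (78559167 to 78572783, minus strand). It stood at 105, 101 and 91.4 FPKM in resident macrophages, against 126, 123 and 136 FPKM in monocyte-macrophages, with no overlap between the groups. The mean was 99.0 ± 6.82 FPKM in resident macrophages and 128 ± 6.61 FPKM in monocyte-macrophages (SD, n = 3 each), a log2 fold change of -0.37 (SE 0.10, adjusted p = 0.029). This call ended without any of 5 single libraries: the adjusted p was 0.054, 0.077 and 0.11 without resident macrophage library 1, 2 or 3, and 0.056 and 0.064 without monocyte-macrophage library 1 or 3. It also ended with quantile normalization (adjusted p = 0.071), and the fold change lay between -0.42 and -0.25 in all settings.

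Rac1, the Rac GTPase found in most cell types, lies on chromosome 5 (143503634 to 143528036, minus strand). Its levels were 65.3, 60.8 and 60.7 FPKM in resident macrophages and 46.9, 66.8 and 69.3 FPKM in monocyte-macrophages, where library 1 was the lowest of all. The log2 fold change was 0.05 (SE 0.15, adjusted p = 0.85; 95% interval -0.31 to 0.41). Of the 75-base windows of the longest Rac1 transcript, 54.7% also occur in transcripts of Daglb on the opposite strand, and without a stated strand setting reads of the pair cannot be told apart. Daglb itself was at 8.62, 7.85 and 7.04 FPKM in resident macrophages, against 5.99, 5.83 and 5.06 FPKM in monocyte-macrophages (log2 fold change 0.41, adjusted p = 0.034).

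Hvcn1, the proton channel gene, lies on chromosome 5 (122206804 to 122242297, plus strand) and had the lowest level of the members. Its values were 14.6, 13.1 and 13.4 FPKM in resident macrophages and 4.82, 10.2 and 13.1 FPKM in monocyte-macrophages. The groups did not overlap, but the highest monocyte-macrophage value (13.098) and the lowest resident macrophage value (13.107) nearly touched. The log2 fold change was 0.60 (SE 0.30, adjusted p = 0.17; 95% interval -0.09 to 1.29), and it was 0.23 without monocyte-macrophage library 1. B cells use this channel too, and the summed B and plasma cell markers were at 342, 68.5 and 111 FPKM in resident macrophages against 37.4, 13.9 and 32.5 FPKM in monocyte-macrophages, most of it Ighm. Of these 10 markers 5 were higher and the other 5 were not tested, with Blk listed at 0 in each monocyte-macrophage library, and their part in the Hvcn1 values was not tested. Every gate required CD11b and at least low F4/80, and how many B cells passed is not stated. Tctn1, on the opposite strand, shares 49.8% of the 75-base windows of the longest Hvcn1 transcript and was at 1.07, 1.09 and 1.499 FPKM in resident macrophages, against 0.996, 1.72 and 0.753 FPKM in monocyte-macrophages.

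The order of the members differed between the groups. In resident macrophages it ran from Cyba (294 FPKM) over Cybb (171), Rac2 (99.0), Rac1 (62.3), Ncf1 (62.2) and Ncf4 (34.3) to Hvcn1 (13.7), and the libraries of each gene lay clear of those of the next except for Rac1 and Ncf1. In monocyte-macrophages Cybb came first (379 FPKM), with values that overlapped those of Cyba (308). Rac2 followed at 128 FPKM, clear of both neighbours. Ncf1 (68.3), Rac1 (61.0) and Ncf4 (58.9) overlapped each with its neighbour in that order, and Hvcn1 was last (9.37). Spread differed by member. The SD of Hvcn1, Ncf1 and Rac1 was 5.97%, 6.72% and 4.15% of the mean in resident macrophages, against 44.9%, 27.1% and 20.1% in monocyte-macrophages. For Cybb it was 11.7% in resident macrophages and 16.9% in monocyte-macrophages, and for Ncf4 it was 9.83% in resident macrophages and 9.85% in monocyte-macrophages. Cyba (7.58% in resident macrophages, 5.83% in monocyte-macrophages) and Rac2 (6.89% in resident macrophages, 5.15% in monocyte-macrophages) varied less among monocyte-macrophages.

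Ratios of members within a library do not depend on a factor that scales a whole library. The ratio of Cyba to Cybb, the partners in the membrane, was 1.90, 1.55 and 1.77 in resident macrophages and 0.846, 0.906 and 0.720 in monocyte-macrophages. Cyba FPKM thus exceeded Cybb FPKM in every resident macrophage library and was below it in every monocyte-macrophage library. The difference between the groups was 2.11-fold on the mean of log2 ratios. The gene lengths behind the FPKM are not stated. They bear on which side of 1 a ratio falls and on the order of the members, but not on the fold difference between groups. Ncf4 over Ncf1 was 0.586, 0.538 and 0.529 in resident macrophages, against 1.003, 0.927 and 0.733 in monocyte-macrophages. Rac2 over Rac1 was 1.605, 1.66 and 1.505 in resident macrophages, against 2.69, 1.84 and 1.96 in monocyte-macrophages, with Rac2 above Rac1 in all 6 libraries. As given above, a large part of the Rac1 and Hvcn1 transcripts is shared with genes on the opposite strand. The levels of both beside other members are therefore less certain, here and in the order of the members. For Hvcn1 over Cybb the values were 0.0881, 0.0681 and 0.0873 in resident macrophages, against 0.0129, 0.0321 and 0.0294 in monocyte-macrophages, a 3.51-fold difference. In none of these 4 ratios did the groups overlap. The two-sided exact permutation test gave p = 0.1 for each, also adjusted over the 4 ratios, which is the smallest p that 3 libraries against 3 allow. Each ratio sets a member that passed the limma test against 1 that did not, so the ratios partly restate those fold changes. How often ratios of other gene pairs overlap was not counted.

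**Figure D3:**
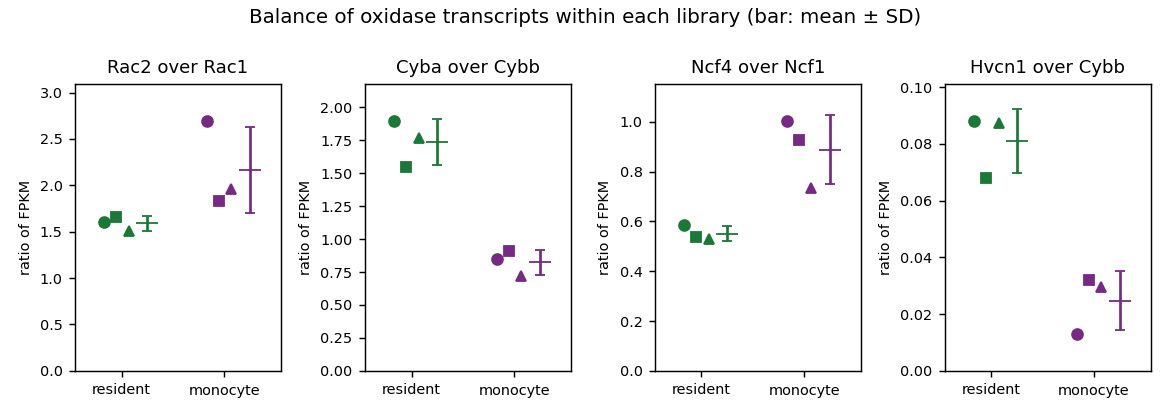
Ratio of FPKM between pairs of oxidase genes within each library (vertical axes, linear from 0), for resident macrophages and monocyte-macrophages, with symbols for library number and bars for the mean ± SD. Cyba over Cybb lies between 1.55 and 1.90 in resident macrophages and between 0.720 and 0.906 in monocyte-macrophages.

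Neutrophils carry large amounts of the oxidase, and 7 of 12 neutrophil markers were lower in resident macrophages, as were Cybb, Ncf4 and Rac2. Of the 5 markers that did not pass, Retnlg (log2 fold change 0.43) and Stfa2l1 (0.26) had the opposite sign. The summed level of 12 neutrophil markers was 769, 772 and 579 FPKM in resident macrophages against 1195, 3734 and 5902 FPKM in monocyte-macrophages, with 7 markers lower, 0 higher and none at 0 in a whole group. Ly6g, which defines mature mouse neutrophils, was at 3.12, 2.55 and 1.58 FPKM in resident macrophages against 0.972, 3.12 and 12.2 FPKM in monocyte-macrophages and did not pass (adjusted p = 0.58). Monocyte-macrophage library 3 had the largest neutrophil sum and also the highest Cybb (445 FPKM), Ncf4 (65.5 FPKM) and Rac2 (136 FPKM) of its group. Library 1 had the smallest neutrophil sum of that group, and there Cybb (374 FPKM) and Rac2 (126 FPKM) were above, and Ncf4 (54.5 FPKM) below, the values in library 2 (317, 123 and 56.8 FPKM). The summed classical monocyte markers lay between 4336 and 5484 FPKM in resident macrophages and between 11659 and 14900 FPKM in monocyte-macrophages. The part of these cells in the differences was not tested.

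A set of 10 lists of genes around the oxidase gave 120 tested genes besides the members, of which 18 were higher and 30 lower in resident macrophages, with a median log2 fold change of -0.08. Without resident macrophage library 2 the numbers were 10 and 18, and without resident macrophage library 1 they were 13 and 18. In the fit of the 4 libraries low in Y-linked RNA they were 11 and 17. Of the 48 calls, 28 were kept without each single library and 20 ended without at least 1. Over all tested genes 19.9% were higher and 10.6% lower, the shares to set beside each list count that follows. No test of a list as a whole was run.

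**Figure D4:**
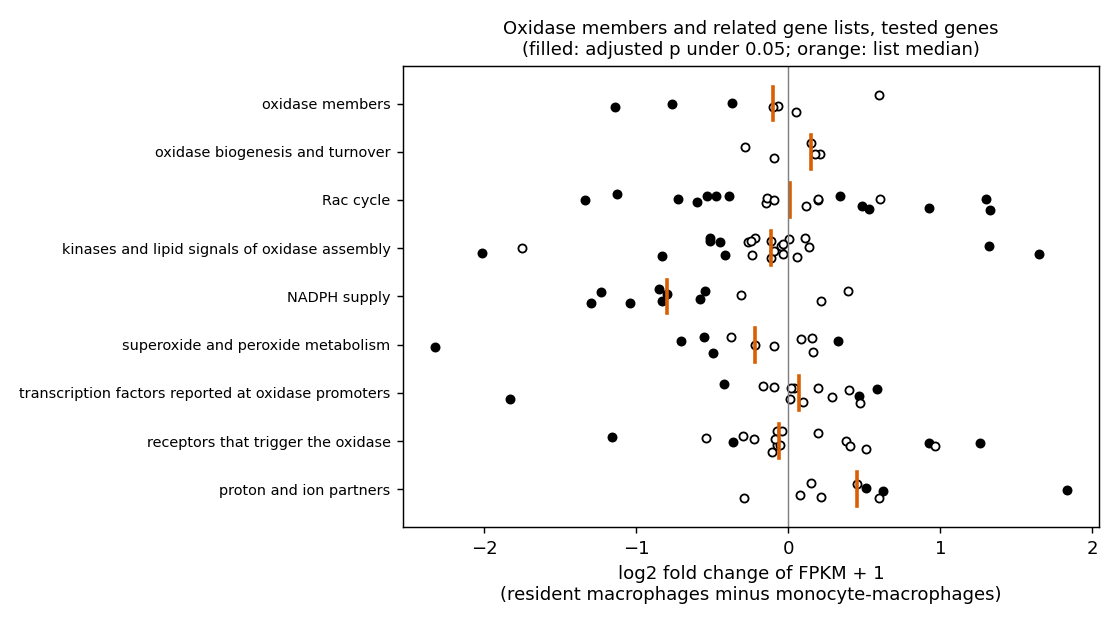
Log2 fold change of FPKM + 1 (horizontal axis, resident macrophages minus monocyte-macrophages) of each tested gene in the oxidase set and in 8 of the related lists, 1 row a list, with filled points for an adjusted p under 0.05 and an orange bar for the list median. The NADPH supply list has its median at -0.80, and the other lists shown have medians between -0.22 and 0.45.

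Genes listed under NADPH supply were mostly lower. The list is wider than the enzymes that make NADPH, and it counts steps that make none themselves, among them Taldo1, Rpia and Rpe. Of the 12 listed genes 11 were tested, and 8 were lower and 0 higher. Also 0 were higher at an unadjusted limma p under 0.05, and 1 was higher without monocyte-macrophage library 1. The median log2 fold change was -0.80 and lay between -0.84 and -0.66 in all settings. Over all tested genes the median was 0.06, and 10.6% were lower. G6pdx, which encodes the glucose-6-phosphate dehydrogenase that opens the pentose phosphate pathway, stood at 36.6, 33.3 and 32.6 FPKM in resident macrophages against 82.7, 68.3 and 96.0 FPKM in monocyte-macrophages (log2 fold change -1.23, SE 0.14, adjusted p = 5.4e-04). Its groups lay far apart, as they did for Pgd, the next NADPH-making enzyme of that pathway, at 20.3, 21.6 and 20.1 FPKM in resident macrophages against 37.3, 35.03 and 41.9 FPKM in monocyte-macrophages (log2 fold change -0.85, adjusted p = 7.2e-04). Idh1, the cytosolic isocitrate dehydrogenase, fell by 1.30 on the log2 scale. Me2, which encodes a mitochondrial malic enzyme that works mainly with NAD, fell by 1.04. The call of Nadk, the kinase that makes NADP, ended without any single library other than monocyte-macrophage library 2 (log2 fold change -0.55, highest adjusted p = 0.10). Tkt (log2 fold change -0.32), Pgls (0.21) and Idh2 (0.39) did not pass, and Me1 was under 0.1 FPKM in each library. Proliferation markers were lower in the same libraries (6 of 7), with sums between 84.3 and 97.4 FPKM in resident macrophages and between 245 and 356 FPKM in monocyte-macrophages, and their part in the enzyme levels was not tested.

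**Figure D5:**
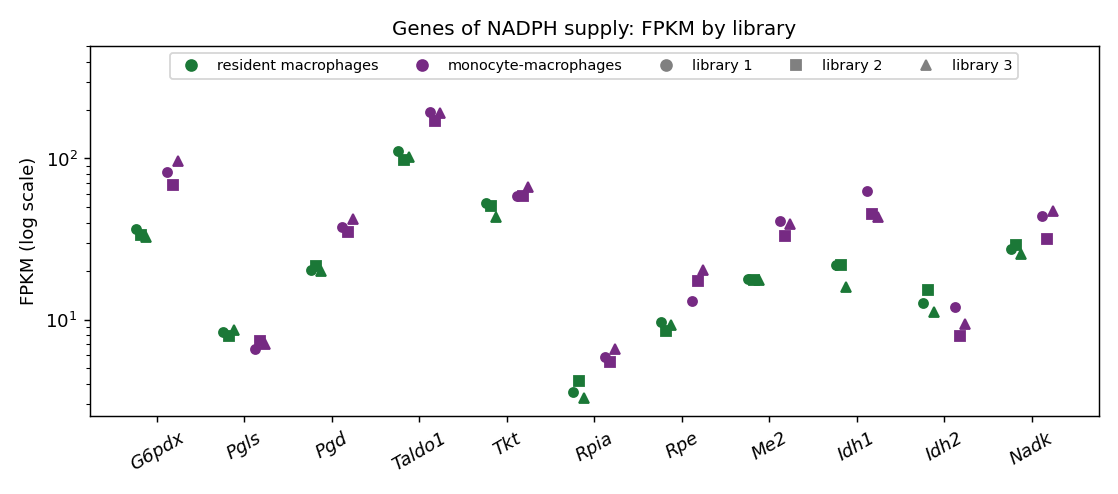
FPKM (vertical axis, log scale) of the 11 tested NADPH supply genes in the 3 resident macrophage and 3 monocyte-macrophage libraries, with symbols for library number. G6pdx, Pgd, Taldo1, Rpia, Rpe, Me2, Idh1 and Nadk, the 8 genes past the threshold, lie lower in every resident macrophage library.

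Genes listed under the Rac cycle moved both ways. The list also counts Rasgrp4, an exchange factor gene for Ras, which was among the lower ones (log2 fold change -0.60). Of 20 tested genes 6 were higher and 7 lower (median log2 fold change 0.01, between -0.09 and 0.06 in all settings). Without resident macrophage library 1, and likewise without library 2, 4 were lower. Arhgdib, whose protein is enriched in blood cells and holds Rac in the cytosol, stood at 183, 141 and 148 FPKM in resident macrophages against 339, 338 and 351 FPKM in monocyte-macrophages (log2 fold change -1.13, SE 0.13, adjusted p = 6.7e-04). Its ubiquitous relative Arhgdia was at 142, 138 and 137 FPKM in resident macrophages against 122, 123 and 50.8 FPKM in monocyte-macrophages and did not pass (adjusted p = 0.20), monocyte-macrophage library 3 being low. Swap70 and the exchange factor gene Vav2 were higher by 1.32 and 1.30, and Racgap1, a GTPase-activating protein of cell division, fell by 1.34. Of the exchange factors of phagocytes, Vav1 (log2 fold change 0.11) and Dock2 (-0.15) did not pass. Prex1 was higher by 0.53, a call that 4 single libraries could end, resident macrophage 1 and 2 and monocyte-macrophage 2 and 3 (highest adjusted p = 0.074). Rac3 reached 0.747, 1.35 and 0.742 FPKM in resident macrophages and 0.179, 0 and 0.0361 FPKM in monocyte-macrophages, too low to be tested.

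Among 23 tested kinases and lipid signal genes of oxidase assembly, 2 were higher and 6 lower (median log2 fold change -0.12). Prkca, a protein kinase C, was at 2.86, 2.84 and 2.80 FPKM in resident macrophages against 0.0807, 0.203 and 0.400 FPKM in monocyte-macrophages (log2 fold change 1.65, adjusted p = 1.8e-04), and the Rac-activated kinase gene Pak1 was higher by 1.32. The isoforms best known to phosphorylate p47phox, Prkcd (log2 fold change 0.13) and Prkcb (0.01), did not pass. Prdx6, a peroxiredoxin with phospholipase activity, fell by 0.83. Syk, the kinase downstream of Fc receptors, fell by 0.45. S100a8, whose protein carries arachidonate to the oxidase in neutrophils, was at 257, 201 and 200.5 FPKM in resident macrophages against 297, 1110 and 2091 FPKM in monocyte-macrophages. Its log2 fold change of -2.01 (adjusted p = 0.044) lost the call without any single library other than monocyte-macrophage library 1, with adjusted p values up to 0.13.

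Receptors that start the oxidase showed 2 of 18 higher and 2 lower (median log2 fold change -0.06, between -0.11 and 0.08 in all settings). Fcgr2b, the inhibitory Fc receptor, and Fcgr4, an activating one, were higher by 1.26 and 0.92. The formyl peptide receptor gene Fpr2 fell by 1.16, a call that ended without resident macrophage library 1 or 2 (highest adjusted p = 0.059). Tnfrsf1a fell by 0.36, a call that ended without any of the 3 resident macrophage libraries or monocyte-macrophage library 1 (highest adjusted p = 0.091). Of 9 proton and ion partners, Hvcn1 among them, 3 were higher and 0 lower by limma (1 lower at an unadjusted p under 0.05), with a median log2 fold change of 0.45 that lay between 0.22 and 0.56 in all settings. Without resident macrophage library 2, 1 was higher. Kcnn4, a calcium-activated potassium channel, was at 5.81, 6.68 and 5.99 FPKM in resident macrophages against 1.028, 1.26 and 0.770 FPKM in monocyte-macrophages (log2 fold change 1.83, adjusted p = 1.1e-04). The lysosomal chloride-proton exchanger gene Clcn7 was higher by 0.51 and the sodium-proton exchanger gene Slc9a9 by 0.62. Both calls ended without resident macrophage library 2 (adjusted p = 0.065 for Clcn7 and 0.056 for Slc9a9), and that of Clcn7 also without resident macrophage library 3 (adjusted p = 0.054).

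Of 14 tested transcription factor genes reported at oxidase promoters, 2 were higher and 2 lower (median log2 fold change 0.07). Spi1, which encodes PU.1, had 88.0, 94.0 and 90.9 FPKM in resident macrophages and 107, 99.8 and 86.7 FPKM in monocyte-macrophages (log2 fold change -0.10, adjusted p = 0.55). Irf8 and Cebpa were higher by 0.46 and 0.58, while Cebpb fell by 0.42 and Cebpe fell by 1.83. Cebpe was at 6.19, 15.3 and 29.5 FPKM in monocyte-macrophage libraries 1, 2 and 3. The summed neutrophil markers rose over these libraries too, as did Fpr2 and S100a8, while Mpo was highest in library 2. The part of neutrophils in these levels was not tested. Without resident macrophage library 1, and likewise without library 2, none of the list was called. Cebpb lost its call without each of the 6 libraries in turn (highest adjusted p = 0.13), and Irf8 without each but monocyte-macrophage library 1 (0.16). Cebpe lost it without library 1, 2 or 3 of the resident macrophages or library 2 of the monocyte-macrophages (0.079), and Cebpa without libraries 1 and 2 of the resident macrophages and 2 and 3 of the monocyte-macrophages (0.078). The 5 tested genes of oxidase biogenesis and turnover gave no call by limma and none at an unadjusted p under 0.05. BC017643, which encodes the chaperone of gp91phox known as EROS, was at 8.11, 5.27 and 7.42 FPKM in resident macrophages against 10.1, 5.63 and 7.01 FPKM in monocyte-macrophages. Nrros, which in mice limits NOX2, was at 17.6, 19.8 and 13.01 FPKM in resident macrophages against 20.6, 18.4 and 22.5 FPKM in monocyte-macrophages. The 2 most abundant, Hsp90b1 and Canx, had log2 fold changes of 0.15 and 0.17.

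In superoxide and peroxide metabolism 1 of 11 tested genes was higher and 4 were lower (median log2 fold change -0.22). The median lay between -0.43 (without monocyte-macrophage library 1) and -0.07 (without resident macrophage library 2), and 2 genes were lower without resident macrophage library 1 or 2, or without library 1 of the monocyte-macrophages. Mpo, the myeloperoxidase gene, was at 14.5, 17.3 and 10.5 FPKM in resident macrophages against 44.9, 108 and 80.4 FPKM in monocyte-macrophages (log2 fold change -2.33, adjusted p = 0.0014), and it also stands among the neutrophil markers. Prdx5, a peroxiredoxin, fell by 0.56. Sod1 fell by 0.70, a call lost when library 1 or 2 of either group was left out (highest adjusted p = 0.10). Gpx1 fell by 0.50, and its call ended without any single library other than monocyte-macrophage library 2 (highest adjusted p = 0.11). The mitochondrial superoxide dismutase gene Sod2 was higher by 0.33, a call that ended without each of the 6 libraries in turn (highest adjusted p = 0.13). No other listed NADPH oxidase gene was expressed at a level that could be tested. Nox3, Nox4, Noxa1, Duox1, Duox2 and Duoxa1 were listed at 0 in all 6 libraries, and the sum of the 9 listed genes was between 0.267 and 0.492 FPKM in resident macrophages and between 0.145 and 0.182 FPKM in monocyte-macrophages.

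The genes whose pattern over the 6 libraries lay closest to each member were found by the root mean square difference of log2(FPKM + 1), each gene centred on its mean. For Cybb these were Hiatl1 (0.072) and Tmpo (0.076), at log2 fold changes of -1.16 and -1.17. For Ncf4 they were Ccr2 (0.080), the chemokine receptor of classical monocytes, and Stk16 (0.088). Rac2 lay closest to Ints6 (0.042) and Mthfd1l (0.045). Cyba was closest to Romo1 and to Itgb2, the integrin chain CD18 (0.027 each), Ncf1 to Arl6ip1 (0.053) and Trim30b (0.065), and Rac1 to Fam208a and A630001G21Rik (0.058 each). Hvcn1 had no close neighbour, the nearest being Gpr146 (0.14) and Ifit2 (0.15). Within a difference of 0.1 lay 414 genes for Cyba, 173 for Rac2, 56 for Rac1 and 31 for Ncf1, but 9 for Ncf4, 4 for Cybb and 0 for Hvcn1. The values were not scaled by their spread, so genes with small changes and little spread tend to have more neighbours by construction.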

How the data were processed

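RNA of sorted cerebrospinal fluid macrophages was sequenced as read pairs of 150 bp. FPKM values were deposited by the authors in 1 table with 1 column per library; tools named were FastQC, HISAT2 and featureCounts, with mm10 as the build, per the submitters' processing notes. For their versions, annotation, strand setting and treatment of multi-mapping reads, nothing is stated. No label ties a library to a mouse of its own, so the p-values reflect how far these libraries vary, which may be technical. FPKM are not counts, and of the values worth under 20 reads only 40.5% to 44.2% lay within 0.02 of a whole read, so no count test was run. Depth was estimated from the 1-read steps with GENCODE M21 exon lengths (94.5% of symbols matched). These estimates cover counting error only.

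Genes with at least 1 FPKM in at least 3 libraries (11317) were fitted as log2(FPKM + 1) in limma 3.58.1 (R 4.3.3) with a mean-variance trend and Benjamini-Hochberg adjustment; the log2(FPKM + 1) scale understates changes of low genes. The code was tested on simulated data. Ratios used an exact permutation test (scipy 1.17.1). Overlaps and shared 75-base windows came from GENCODE M21. The members and gene lists were chosen with earlier results of these data known. Named genes were the members, up to 4 called genes of largest change per related list (with none called, the 2 most abundant tested), and the 2 nearest patterns per member; other genes named were chosen after their values were seen. Some listed genes are not reported here. Alternatives were another pseudocount, other filters and scalings, no trend, each library left out, the title number as a block, and a split by Y-linked RNA.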

Additional observations from a re-analysis of the deposited data

How the results depend on the processing

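Cybb and Ncf4 kept their direction and their call in all 16 alternatives. Leaving out single libraries gave log2 fold changes from -1.26 to -1.02 for Cybb, -0.82 to -0.68 for Ncf4, -0.41 to -0.32 for Rac2, -0.12 to -0.01 for Cyba, -0.25 to 0.10 for Ncf1, -0.13 to 0.15 for Rac1 and 0.23 to 0.86 for Hvcn1, and 2 to 3 members called lower. Rac2 lost its call with quantile normalization (log2 fold change -0.25), in the 4 libraries low in Y-linked RNA (-0.35, adjusted p = 0.12) and with the replicate block (-0.37, adjusted p = 0.083); the cause was not tested. With the same block 2 members and 21 related genes were lower and 14 related genes higher, and the log2 fold change was -1.14 for Cybb (adjusted p = 0.011) and -0.76 for Ncf4 (adjusted p = 0.016). The library numbers share no stated source. Deviations of same-numbered libraries correlated at 0.19, -0.15 and -0.09 across genes. For libraries of unlike number the correlations lay between -0.31 and 0.39. The highest joined resident macrophage library 3 and monocyte-macrophage library 2, the libraries with Ddx3y above 5 FPKM. Without single libraries, 10 to 17 related genes were higher and 18 to 26 lower; in the 4 libraries low in Y-linked RNA it was 11 and 17. With quantile normalization the median over all tested genes shifted by -0.10 (log2), and Cyba (0.12) had the other sign without passing. The share of called genes that were higher was 52.8% with quantile normalization and 65.1% as deposited. Ratio differences without single libraries ranged on the log2 scale from 0.98 to 1.16 (Cyba over Cybb), -0.81 to -0.58 (Ncf4 over Ncf1), -0.53 to -0.25 (Rac2 over Rac1) and 1.39 to 2.05 (Hvcn1 over Cybb).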
